A study of Mus musculus with 6 samples.

Results

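The molecular layer of the cerebellum holds GABAergic interneurons, which fall into a type marked by *Sorcs3* and *Ptprk* (MLI1) and a type marked by *Nxph1* and *Cdh22* (MLI2). Nuclei of the *Sorcs3* type were selected on measured UMIs, where a UMI (unique molecular identifier) stands for a captured transcript counted once. A nucleus was a member with at least 2 UMIs of *Sorcs3*, more UMIs of *Sorcs3* than of *Nxph1*, under 2 UMIs of *Eomes*, and a SingleR label free of the names of granule, Purkinje, glial, vascular, choroid and ependymal cells. This rule found 2215 of the 45473 nuclei, of which 598, 317 and 274 came from the SCA1 mice and 669, 220 and 137 from the WT mice. Values of single mice stand in the order of mice 1, 2 and 3 throughout. They are called *Sorcs3* nuclei here. Only 1483 of them carried a Neuron.Gad1Gad2.Pvalb label, read here as that of molecular layer interneurons, and the name MLI1 is kept for those, as MLI1-like nuclei. Since values of *Sorcs3*, *Nxph1* and *Eomes* chose the members, these levels are given as a description. *Sorcs3* and *Nxph1* stayed among the genes fitted between genotypes, and no result is drawn from their values there.

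The nuclei came from whole cerebella of 3 Pcp2-ATXN1[82Q] mice (SCA1 mice) and 3 wild-type (WT) littermates, labelled C57Bl6, all aged 12 weeks, with 1 library per mouse from frozen or fresh tissue. The transgene of the SCA1 mice, human *ATXN1* with a lengthened CAG tract, is driven by the promoter of *Pcp2*, a gene of Purkinje cells, so the interneurons are not its intended site. WT mice lack it. SCA1 mouse 1 and WT mouse 1 are called batch 1 and the other mice batch 2, as read from how their libraries were numbered.

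Molecular layer interneurons, known as basket and stellate cells, release GABA onto Purkinje cells and onto each other, and receive glutamate from parallel fibers of granule neurons. Basket axons wrap the Purkinje cell soma and form the pinceau at its axon initial segment. Purkinje cells are the sole output of the cerebellar cortex, so these interneurons set when that output is held back. MLI1 are known to be coupled by gap junctions, whose subunit is encoded by *Gjd2*, and MLI2 are not. *Sorcs3*, a sorting receptor of the VPS10 family, lies on chromosome 19, 48206025 to 48805505, in GRCm38. *Ptprk*, a receptor tyrosine phosphatase of cell contacts, lies on chromosome 10, 28074820 to 28597397, and *Nxph1*, a secreted ligand of neurexins, on chromosome 6, 8948431 to 9249032. All 3 are annotated as protein-coding genes.

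A library contained between 18916647 and 98366627 UMIs, from 3354 to 10897 nuclei. *Sorcs3* nuclei held 1162603 to 10584712 UMIs per mouse, and MLI1-like nuclei 850419 to 4819316. WT mouse 2 stood apart by depth, with a median of 4146 UMIs per MLI1-like nucleus against 8639 to 12424 in the other mice. Both mice of batch 1 had the most mitochondrial UMIs among these nuclei, with medians of 2.18% and 3.56% against 0.479 to 1.29% in batch 2. Pairs of libraries shared 7 to 44 cell barcodes. No doublet caller was run. A level is given in CPM, the UMIs of a gene summed over the nuclei of a mouse and scaled to a common total, as the mean ± SD over mice. Levels of different genes were not compared with each other, since longer genes give more UMIs in nuclei.

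The label check divided the *Sorcs3* nuclei. Of the 2215, 1123 were labelled Neuron.Gad1Gad2.Pvalb-Nefh, 350 Pvalb-Rab3b, 8 Pvalb-Chrm2 and 2 Pvalb-Cadm1, which are the 1483 MLI1-like nuclei. A further 302 were labelled Neuron.Slc17a6.Nrgn, 296 Neuron.Slc17a7.Gabra6 (the granule neuron label), 94 Neuron.Gad1Gad2.Lgi2, 28 Neuron.Slc17a6.Sln, 10 Gja1.Htra1 and 2 Neuron.Gad1Gad2.Pcp2 (the Purkinje cell label). The barred words of the rule do not occur in these names, which are built from genes. MLI1-like nuclei were 61.2, 77.9 and 75.5% of the *Sorcs3* nuclei in the SCA1 mice, against 54.7, 87.7 and 75.9% in the WT mice. Both mice of batch 1 had the lowest shares, and the genotypes overlapped.

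**Figure D1:**
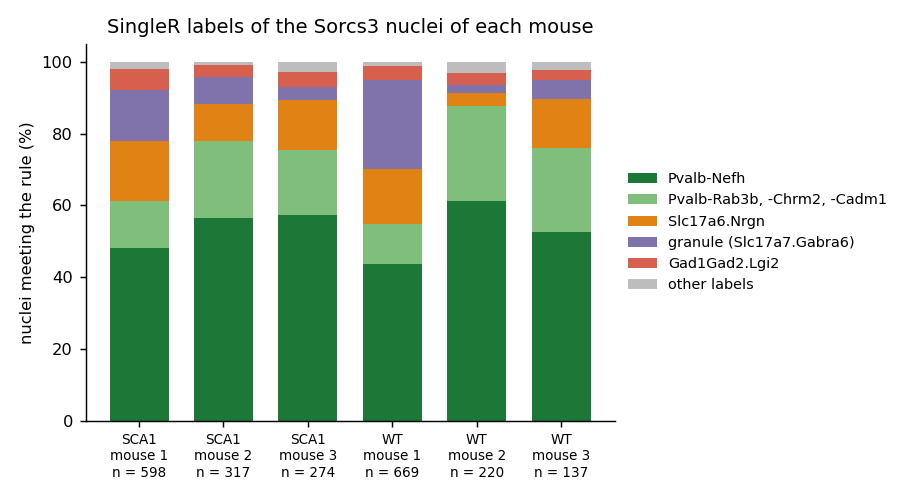
Percentage of the Sorcs3 nuclei of each mouse (y axis) with each SingleR label, as stacked bars with the number of nuclei under each mouse. Both shades of green together are the MLI1-like nuclei, which made up 54.7% in WT mouse 1 and 87.7% in WT mouse 2.

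The rule took 87.6% (exact 95% interval 85.9 to 89.1%) of nuclei labelled Pvalb-Nefh or Pvalb-Rab3b (1473 of 1682) and 0.789% (0.702 to 0.883%) of granule-labelled nuclei (296 of 37532), at median depths of 10250.5 and 5923 UMIs. It also took 39.9% of nuclei labelled Slc17a6.Nrgn (302 of 757), 39.2% of those labelled *Lgi2* (94 of 240) and 26.9% of those labelled Slc17a6.Sln (28 of 104). Intervals here cover counting error only. The members just inside the threshold, with exactly 2 UMIs of *Sorcs3*, numbered 249, of which 183 were granule-labelled and 19 MLI1-like. Just outside it were 1466 nuclei with 1 UMI of *Sorcs3*, and 31 of these carried an interneuron label. The median MLI1-like nucleus held 20 UMIs of *Sorcs3* and the median other member 5. MLI1-like nuclei thus lay far from the threshold, and granule-labelled members close to it.

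Markers that the rule did not use were set beside granule neurons outside the rule. *Sorcs3* itself, which chose the members, stood at 2124 ± 411 CPM in MLI1-like nuclei over the 6 mice. *Ptprk* had a UMI in 98.2% of MLI1-like nuclei (median depth 10449 UMIs) and in 5.93% of granule neurons (median depth 5890.5 UMIs), at 1243 ± 467 and 13.7 ± 4.01 CPM. *Gad1*, which makes GABA from glutamate, had one in 90.5% and 33.1% of the same nuclei, at 347 ± 56.0 and 59.3 ± 43.9 CPM. *Lypd6*, a membrane-anchored modulator of nicotinic receptors, stood at 215 ± 36.3 and 3.40 ± 2.66 CPM, and *Kit*, the receptor of stem cell factor on these interneurons, at 567 ± 102 and 16.2 ± 8.55 CPM. *Gjd2* was low, at 11.9 ± 3.15 CPM in MLI1-like nuclei and 2.94 ± 1.28 CPM in interneuron-labelled *Nxph1* nuclei.

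*Pvalb*, the calcium buffer parvalbumin, was found widely. It had a UMI in 92.7% of MLI1-like nuclei, 92.2% of interneuron-labelled *Nxph1* nuclei, 93.5% of Purkinje-labelled nuclei and 65.7% of granule neurons, which should lack it, at median depths of 10449, 11568, 36466 and 5890.5 UMIs. Its levels were 382 ± 174, 304 ± 148, 206 ± 87.4 and 225 ± 158 CPM. The SDs over mice overlapped, but within each of the 6 mice the TMM-scaled level was higher in MLI1-like than in interneuron-labelled *Nxph1* nuclei, by 1.21 to 1.42-fold. The part of free RNA in these shares was not tested.

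**Figure D2:**
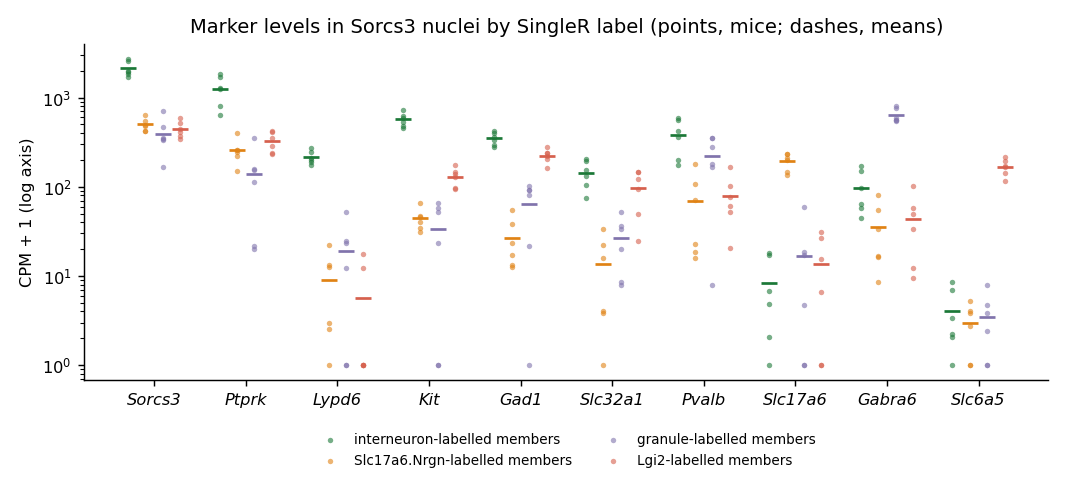
Levels of 10 markers (CPM + 1, log axis) in Sorcs3 nuclei of 4 kinds of label, with a point per mouse and a dash for the mean of 6 mice. Sorcs3, Ptprk, Lypd6 and Kit were highest in MLI1-like nuclei, Slc17a6 in nuclei labelled Slc17a6.Nrgn, Gabra6 in granule-labelled nuclei and Slc6a5 in nuclei labelled Gad1Gad2.Lgi2.

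The other 732 members carried labels of other cells, and markers set the larger of these groups apart from the MLI1-like nuclei. Nuclei labelled Slc17a6.Nrgn were deep, with a median of 22039 UMIs, and had *Slc17a6*, the vesicular glutamate transporter of cerebellar nuclei neurons, at 192 ± 42.2 CPM against 7.29 ± 7.46 CPM in MLI1-like nuclei. Their *Gad1* stood at 25.6 ± 16.7 CPM and their *Sorcs3* at 498 ± 79.8 CPM. *Cdh9*, a cadherin, stood at 265 ± 47.4 CPM in them and 1.11 ± 1.40 CPM in MLI1-like nuclei, while *Gldc*, of the glycine cleavage system, stood at 2.26 ± 1.50 and 364 ± 56.9 CPM. Nuclei labelled *Lgi2* had *Slc6a5*, the glycine transporter of Golgi cells, at 166 ± 35.6 CPM against 3.04 ± 3.04 CPM, and *Lgi2* at 551 ± 123 against 30.4 ± 7.44 CPM. They shared *Gad1* with MLI1-like nuclei, at 222 ± 38.9 CPM, but *Lypd6* stood at 4.65 ± 7.40 CPM.

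Granule-labelled members had *Gabra6*, a GABA-A receptor subunit of granule neurons, at 638 ± 117 CPM, against 739.7 ± 113 CPM in granule neurons outside the rule and 96.5 ± 52.3 CPM in MLI1-like nuclei. Their *Ptprk* stood at 137 ± 123 CPM, between both. In WT mouse 1 they numbered 165 of 669 members, and in WT mouse 2 they numbered 5 of 220. Since these members and the glutamatergic ones differ in number between mice, shares and counts over all genes are given below for all *Sorcs3* nuclei, as the rule has it, and for the MLI1-like nuclei, a choice made after the labels were seen. The accounts by role are of the MLI1-like nuclei, and the lists whose counts differ over all *Sorcs3* nuclei are given after them.

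MLI1-like nuclei varied among themselves along their labels. Of 4064 genes with at least 50 CPM under either label, 10 were at least 2-fold higher under the Pvalb-Rab3b label and 25 at least 2-fold lower, with the same side in all 6 mice (0.246% and 0.615%). These are descriptions, since the labels were drawn from the same counts. Genes with less RNA under Pvalb-Rab3b than under Pvalb-Nefh included the metabotropic glutamate receptors *Grm7* (36.4 ± 16.5 against 253 ± 67.5 CPM) and *Grm8* (316 ± 67.9 against 1096 ± 310.2 CPM), the leucine-rich repeat gene *Lingo2* (49.2 ± 32.0 against 382 ± 88.5 CPM) and *Pde5a*, which breaks down cyclic GMP (23.4 ± 15.1 against 75.9 ± 7.33 CPM). Genes with more included *Rgs6*, a regulator of G protein signaling (93.8 ± 33.7 against 23.8 ± 9.80 CPM), the receptor phosphatase *Ptprt* (348 ± 95.2 against 144 ± 39.5 CPM), the R-type calcium channel *Cacna1e* (305 ± 78.6 against 136 ± 36.1 CPM) and the NMDA receptor subunit *Grin2a* (212 ± 75.6 against 101 ± 52.1 CPM). *Sorcs3* stood at 2143 ± 494 and 2133 ± 401 CPM. *Nxph1*, a gene of the rule, was not left out here and is counted among the 10. It stood at 81.4 ± 61.7 CPM under Pvalb-Rab3b against 39.0 ± 29.3 CPM under Pvalb-Nefh. The rule with *Sorcs3* and *Nxph1* exchanged took 88 of 458 nuclei labelled Pvalb-Rab3b and 53 of 1224 labelled Pvalb-Nefh. Pvalb-Nefh nuclei were 76.0 ± 3.66% of both labels in SCA1 and 73.5 ± 6.20% in WT mice (SD, n = 3 mice each), which differ by less than the spread between mice (exact permutation test, two-sided, p = 0.600).

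Next, MLI1-like nuclei were set beside the other interneuron type, the 657 interneuron-labelled nuclei of the mirrored rule (*Nxph1* of at least 2 UMIs and above *Sorcs3*). Of 4232 genes with at least 50 CPM in either, 123 (2.91%) were at least 2-fold higher and 205 (4.84%) at least 2-fold lower in MLI1-like nuclei, on the same side in all 6 mice, with *Sorcs3*, *Nxph1* and *Eomes* left out. Over all *Sorcs3* nuclei against all *Nxph1* nuclei by the rules, these were 75 (1.8%) and 56 (1.34%) of 4175 genes, led by *Chst9* (26.4-fold) and *Gldc* (17.2-fold) on the higher and by *Gm45459* (28.0-fold) and *Cdh22* (8.78-fold) on the lower side. The rule separates these nuclei by measured UMIs, so these values carry no test. Levels in this comparison are scaled by TMM, edgeR's trimmed-mean factors, over the 12 sums.

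*Lypd6* led the genes higher in MLI1-like nuclei, with 196, 177 and 307 CPM in the SCA1 and 189, 205 and 262 CPM in the WT mice, against 5.93, 0.919 and 2.74 CPM in the SCA1 and 8.28, 3.27 and 7.14 CPM in the WT mice in *Nxph1* nuclei. Every mouse of the first set thus lay above every mouse of the second. *Galnt18*, a glycosyltransferase that starts O-linked chains, followed (852 ± 155 against 23.7 ± 12.8 CPM, 35.9-fold higher), with *Chst9*, a sulfotransferase (461 ± 159 against 14.7 ± 6.80 CPM, 31.3-fold higher), and *Gldc* (376 ± 78.8 against 18.0 ± 5.90 CPM, 20.9-fold higher). *Ptprk*, which shares a marker role with *Sorcs3* but was not used by the rule, stood at 1295 ± 549 against 65.9 ± 17.5 CPM, 19.7-fold higher. The RhoG exchange factor *Arhgef26* (267 ± 53.4 against 13.5 ± 3.57 CPM, 19.7-fold higher) and the latrophilin *Adgrl3*, a presynaptic adhesion receptor (3932 ± 1042 against 481 ± 113 CPM, 8.17-fold higher), were also among the 10 highest folds, along with the gene models *A830012C17Rik* and *Gm11417*.

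The 10 lowest folds held *Cdh22*, a cadherin that marks MLI2 (16.8 ± 12.6 against 448 ± 73.2 CPM, 26.6-fold lower), and *Grm5*, a metabotropic glutamate receptor, at 61.0, 6.20 and 12.2 CPM in the SCA1 and 39.1, 5.69 and 18.1 CPM in the WT mice in MLI1-like nuclei and 621, 679.9 and 864 CPM in the SCA1 and 533, 308 and 1013 CPM in the WT mice in *Nxph1* nuclei. All mice of the first set lay below all of the second. The zinc finger gene *Zmat4* (5.51 ± 7.20 against 288 ± 56.8 CPM, 52.3-fold lower), *Klhl1* (4.44 ± 3.83 against 175 ± 76.6 CPM, 39.4-fold lower), the muscarinic receptor *Chrm2* (5.52 ± 3.93 against 148 ± 60.1 CPM, 26.8-fold lower), *Shisa9*, which binds AMPA receptors (6.24 ± 6.15 against 187 ± 95.8 CPM, 30.0-fold lower), *Galnt14* (2.30 ± 2.39 against 82.0 ± 23.9 CPM, 35.7-fold lower) and *Sorcs2*, of the same receptor family as *Sorcs3* (2.71 ± 2.26 against 65.9 ± 19.7 CPM, 24.4-fold lower), were of this kind, with *Ccbe1* and the gene model *Gm45459*. Of the 263 nuclei labelled Pvalb-Chrm2, 233 met the mirrored rule and 8 the rule of *Sorcs3* nuclei, so that both sides also differ in their labels. *Klhl1* had been listed as a marker of Golgi and Purkinje layer interneurons. It was the only 1 of 7 such markers with at least 50 CPM in either set. Whether the *Nxph1* nuclei include such cells was not tested.

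**Figure D3:**
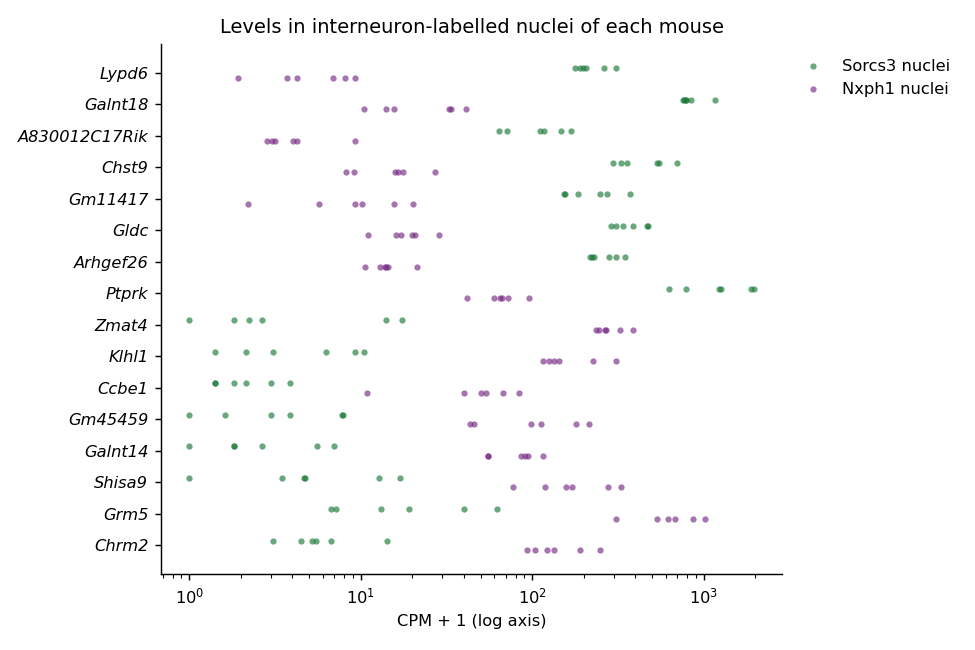
Levels (CPM + 1, log axis) of the 8 largest folds each way in MLI1-like nuclei (green) and interneuron-labelled Nxph1 nuclei (purple), with a point per mouse. For Lypd6 the lowest green point stands at 177 CPM and the highest purple point at 8.28 CPM.

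Gene lists by role are described by their counts, to be read beside the 2.91% of all genes that were at least 2-fold higher and the 4.84% that were at least 2-fold lower. Among subunits of ionotropic glutamate receptors, which carry the parallel fiber input, 2 of 16 were at least 2-fold higher and 4 at least 2-fold lower in MLI1-like nuclei. The delta receptor *Grid1* was higher (1511 ± 374 against 264 ± 81.6 CPM, 5.73-fold higher), and the NMDA receptor subunits *Grin2b* (199 ± 39.5 against 889 ± 169 CPM, 4.47-fold lower), *Grin3a* (193 ± 49.8 against 693 ± 239.9 CPM, 3.58-fold lower) and *Grin2a* (133 ± 54.3 against 294 ± 133 CPM, 2.21-fold lower) and the kainate receptor *Grik4* (9.11 ± 8.38 against 160.1 ± 57.6 CPM, 17.6-fold lower) were lower. The obligatory NMDA receptor subunit *Grin1* differed less (578 ± 50.1 and 451 ± 38.5 CPM). Of the metabotropic receptors, 2 of 5 were at least 2-fold higher and 1 at least 2-fold lower, with *Grm8* (949 ± 311 against 133 ± 93.8 CPM, 7.16-fold higher) and *Grm3* (489.9 ± 232 against 122 ± 61.0 CPM, 4.03-fold higher) on one side and *Grm5* on the other.

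Of the potassium and HCN channel genes, 1 of 18 were at least 2-fold higher and 4 at least 2-fold lower. *Kcnip4*, which modulates A-type channels, was higher (7805 ± 1398 against 2513 ± 1366 CPM, 3.11-fold higher), whereas the fast delayed rectifiers *Kcnc1* (129 ± 57.7 against 368 ± 37.1 CPM, 2.85-fold lower) and *Kcnc2* (11 ± 16.3 against 169 ± 76.5 CPM, 15.4-fold lower) were lower, with *Kcnb2* and *Kcnh7*. *Kcna1* and *Kcna2*, the channels of the basket cell pinceau, were within 1.5-fold of the *Nxph1* nuclei, at 354 ± 50.9 against 289 ± 53.4 CPM and 365 ± 49.9 against 281 ± 54.3 CPM. Among voltage-gated calcium channel genes, 0 of 10 were at least 2-fold higher and 1 at least 2-fold lower, the lower one being the auxiliary subunit *Cacna2d2* (79.5 ± 13.7 against 277 ± 21.7 CPM, 3.48-fold lower).

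Of the synaptic adhesion genes, 3 of 22 were at least 2-fold higher and 4 at least 2-fold lower. *Il1rapl1*, a postsynaptic organizer, was higher (2498 ± 478 against 886 ± 214 CPM, 2.82-fold higher) besides *Adgrl3* and *Ptprk*, while *Ptprt* (201 ± 45.6 against 1441 ± 497 CPM, 7.18-fold lower), *Ptprd* (216 ± 165 against 769.6 ± 256 CPM, 3.57-fold lower), *Cdh18* (163 ± 81.5 against 676 ± 302 CPM, 4.15-fold lower) and *Cntn6* (312 ± 60.4 against 783 ± 215 CPM, 2.51-fold lower) were lower. Of the neuregulin, ErbB and *Kit* genes, 0 of 6 were at least 2-fold higher and 3 at least 2-fold lower, and these were the ligands *Nrg1* (69.3 ± 49.6 against 409.8 ± 186 CPM, 5.91-fold lower) and *Nrg3* (779 ± 173 against 2379 ± 655 CPM, 3.05-fold lower) and their receptor *Erbb4* (141 ± 64.1 against 609 ± 232 CPM, 4.31-fold lower). Of the genes of GABA handling, 0 of 6 were at least 2-fold higher and 0 at least 2-fold lower, with *Gad1* at 357 ± 65.3 against 199.9 ± 12.8 CPM and *Gad2* at 209 ± 28.3 against 239.9 ± 35.2 CPM. Of the presynaptic release genes, 0 of 12 were at least 2-fold higher and 0 at least 2-fold lower.

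Next came the question of whether SCA1 cerebella hold fewer or more of these interneurons. As a share of all nuclei, with exact 95% intervals, MLI1-like nuclei were 3.36% (interval 3.03 to 3.71%), 3.42% (interval 3.02 to 3.87%) and 3.03% (interval 2.64 to 3.46%) in the SCA1 mice, against 3.5% (interval 3.15 to 3.87%), 2.88% (interval 2.49 to 3.30%) and 3.10% (interval 2.54 to 3.74%) in the WT mice. The genotypes overlapped. The means ± SD over 3 mice each were 3.27 ± 0.212% in SCA1 and 3.16 ± 0.315% in WT mice, and the difference of 0.112 percentage points lay within that spread (exact permutation test, two-sided, p = 0.700, where 0.1 is the smallest value 3 mice against 3 allow). It was -0.139 points in batch 1 and 0.238 in batch 2. After thinning to 3000 UMIs, which leaves out 4784 shallower nuclei of WT mouse 2 and 0 to 1104 of another mouse, the difference turned to -1.12 points (exact permutation test, p = 0.700), with WT mouse 2 at 6.96%. By the rule alone, *Sorcs3* nuclei were 5.49% (interval 5.07 to 5.93%), 4.39% (interval 3.93 to 4.89%) and 4.01% (interval 3.56 to 4.50%) in the SCA1 mice, against 6.39% (interval 5.93 to 6.88%), 3.28% (interval 2.87 to 3.73%) and 4.08% (interval 3.44 to 4.81%) in the WT mice. These means were 4.63 ± 0.767% in SCA1 and 4.59 ± 1.62% in WT mice, with a difference of 0.0445 points (exact permutation test, p = 1.00), -0.906 in batch 1 and 0.520 in batch 2. With nuclei of at least 3000 UMIs only, the difference turned to -1.43 points (exact p = 0.500), as WT mouse 2 rose to 8.46%.

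Among both interneuron types, a denominator that does not move with the number of granule nuclei, MLI1-like nuclei were 67.4% (interval 63.3 to 71.3%), 73.3% (interval 68.2 to 77.9%) and 69.2% (interval 63.7 to 74.4%) in the SCA1 mice, against 71.9% (interval 67.8 to 75.8%), 65.6% (interval 59.9 to 71.1%) and 65.8% (interval 57.9 to 73.2%) in the WT mice. The means were 70.0 ± 3.02% in SCA1 and 67.8 ± 3.56% in WT mice (n = 3 mice each, exact permutation test, p = 0.500), and the difference of 2.18 points was -4.50 in batch 1 and 5.53 in batch 2. After thinning it was 3.92 points (exact permutation test, p = 0.300). Over all *Sorcs3* and *Nxph1* nuclei by the rules, the means were 62.8 ± 5.91% in SCA1 and 63.5 ± 0.305% in WT mice (n = 3 mice each, exact permutation test, p = 0.900), with a difference of -0.672 points, -5.82 in batch 1 and 1.90 in batch 2. These *Sorcs3* and *Nxph1* nuclei include 296 and 378 with the granule neuron label, so their total can move with granule nuclei. The direction thus differed between batches for both denominators when nuclei were neither selected by depth nor thinned. As a share of all nuclei, the difference had the same sign in both batches once nuclei under 3000 UMIs were left out. It was then -0.0457 points in batch 1 and -1.65 in batch 2 for MLI1-like nuclei thinned to 3000 UMIs, and -0.906 and -1.69 for *Sorcs3* nuclei of at least 3000 UMIs. Leaving out *Sorcs3* nuclei above 3 times the median UMIs instead gave -0.672 points in batch 1 and 0.512 in batch 2. Batch 1 holds 1 mouse of each genotype, so its difference has no replicate.

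**Figure D4:**
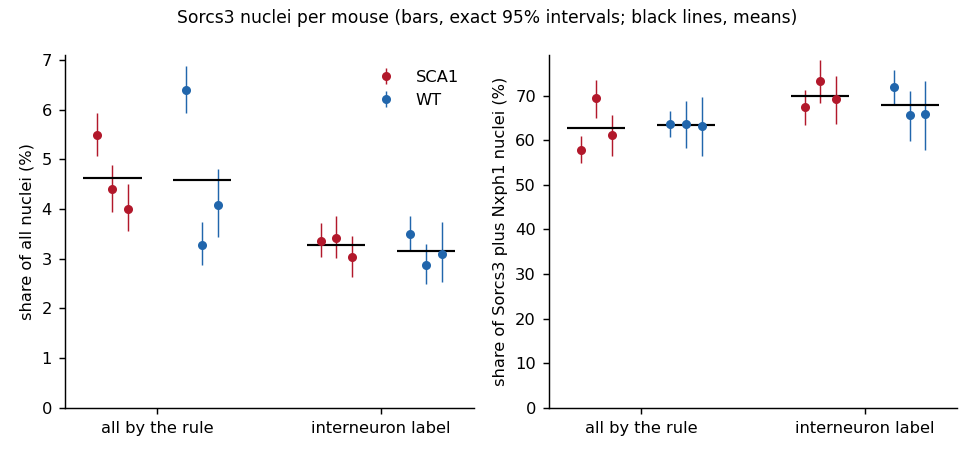
Sorcs3 nuclei of each mouse as a percentage of all nuclei (left) and of Sorcs3 plus Nxph1 nuclei (right), by the rule and for interneuron-labelled nuclei. Points are mice in the order 1, 2, 3, bars are exact 95% binomial intervals and black lines are means, and the genotypes overlap in each of the 4 comparisons.

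Gene expression was then compared between SCA1 and WT mice on UMIs summed per mouse, by edgeR's quasi-likelihood test on genotype with batch in the model. Adjusted p values are Benjamini-Hochberg values over every gene tested. No gene passed an adjusted p of 0.05. In *Sorcs3* nuclei 0 of 13741 genes (0%) did, and in MLI1-like nuclei 0 of 12153 (0%). DESeq2 also gave 0 in both. At an unadjusted p under 0.05 there were 108 genes (0.786%) and 124 genes (1.02%). With the replicate number, by which mice of both genotypes deviated together, as a block in place of batch, 0 genes passed in either set, and 471 (3.43%) and 427 (3.51%) had an unadjusted p under 0.05. The sample labels do not call mice of one number a pair, so the pairing was inferred from these same counts. In MLI1-like nuclei the SCA1 mouse lay below the WT mouse in all 3 pairs of that number for 1560 genes (12.8%) and above it for 1451 (11.9%). The SCA1 mice all lay above the WT mice in 221 genes (1.61%) and below them in 276 genes (2.01%) of the *Sorcs3* nuclei, and in 204 (1.68%) and 234 (1.93%) of the MLI1-like nuclei. The median standard error of a log2 fold change was 0.26 in MLI1-like nuclei and 0.20 among the 1902 genes of at least 100 CPM, which limits how small a change these mice could show.

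Genes of at least 20 CPM whose SCA1 mice all lay on one side of the WT mice were picked. Those of them with the lowest p values are given with their levels. None of these passed the adjusted test (edgeR, adjusted p = 1.00 at the lowest in MLI1-like nuclei and 1.00 in *Sorcs3* nuclei). Over every gene tested in *Sorcs3* nuclei, the lowest adjusted p was 0.869 by edgeR and 0.0665 by DESeq2. In MLI1-like nuclei the gene model *9630014M24Rik* had the lowest p, at 32.2, 17.5 and 17.0 CPM in the SCA1 mice and 61.0, 41.1 and 44.9 CPM in the WT mice, with a log2 fold change of -1.15 (SE 0.19, unadjusted p = 2.03e-04). Its log2 fold change was -0.19 in granule neurons and -0.068 in interneuron-labelled *Nxph1* nuclei of the same mice. Over all *Sorcs3* nuclei it was -0.43 (unadjusted p = 0.161 by edgeR), and the genotypes overlapped there. *Slc15a2*, a peptide transporter known from astrocytes, was at 15.1, 2.85 and 9.11 CPM in the SCA1 mice and 24, 41.1 and 21.6 CPM in the WT mice (log2 fold change -1.60, SE 0.48, unadjusted p = 0.00859 by edgeR). *Sgpp1*, a sphingosine-1-phosphate phosphatase, was at 26.8, 22.0 and 17.0 CPM in the SCA1 mice and 33.1, 35.4 and 39.1 CPM in the WT mice, and *Ptpn5*, the neuronal phosphatase STEP, at 31.6, 31.7 and 42.4 CPM in the SCA1 mice and 45.7, 49.1 and 62.4 CPM in the WT mice.

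The other genes with lower levels in SCA1 mice were *Gm49179*, *Gm26693*, *B230217O12Rik*, *Golga3*, *Klhl26* and *Rgs8*, with log2 fold changes of -1.08 to -0.64. Among those with higher levels, the long noncoding gene *2810049E08Rik* (chromosome 13, 83891208 to 83928710) was at 21.4, 28.9 and 27.3 CPM in the SCA1 mice and 12.3, 9.13 and 18.3 CPM in the WT mice (log2 fold change 0.91, SE 0.27, unadjusted p = 0.00784 by edgeR) and at 19.5, 24.6 and 25.7 and 13, 13.3 and 15.2 CPM in all *Sorcs3* nuclei. *Shld2*, of the shieldin complex of DNA repair, was at 27.6, 26.4 and 28.5 CPM in the SCA1 mice and 18.1, 18.3 and 15.8 CPM in the WT mice, and the transcription factor gene *Creb5* at 41.5, 31.3 and 59.4 CPM in the SCA1 mice and 30.2, 22.8 and 22.5 CPM in the WT mice. *Dusp16*, *Lyrm1*, *Atp7a*, *C920021L13Rik*, *Ppp4c*, *Metap1d* and *Mir670hg* completed the 10, with log2 fold changes of 0.48 to 0.75.

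Over all *Sorcs3* nuclei the same rule named *2810049E08Rik* and *Lyrm1* again among the higher genes, with *St3gal4*, *Slit2*, *Uvssa*, *D230025D16Rik*, *1700012D14Rik*, *Nt5c3b*, *Mblac2* and *Htr2c*, and *Rgs8*, *Slc15a2* and *Sgpp1* again among the lower, with *Clstn2*, *Rorb*, *Kcnj9*, *Lars2*, *Cdk8*, *Tppp* and *Irs2*. Some of these belong to the members of other labels. *Clstn2*, a calsyntenin of synapses, was at 116, 87.2 and 123 CPM in the SCA1 and 220.3, 141 and 153 CPM in the WT mice over all *Sorcs3* nuclei, and stood at 494 ± 415 CPM in granule-labelled members and 38.4 ± 22.5 CPM in MLI1-like nuclei. The serotonin receptor gene *Htr2c* was too low for a test in MLI1-like nuclei (13.9, 0.813 and 0.792 CPM in the SCA1 and 13.2, 0 and 0 CPM in the WT mice). The log2 fold change of *Rorb*, a nuclear receptor gene, was -0.97 in all *Sorcs3* nuclei and 1.01 in MLI1-like nuclei, and that of the axon guidance gene *Slit2* was 0.53 and -0.66, so that both turned with the choice of nuclei. *Mir670hg*, named in MLI1-like nuclei, turned as well, from 0.64 there to -0.18 in all *Sorcs3* nuclei.

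**Figure D5:**
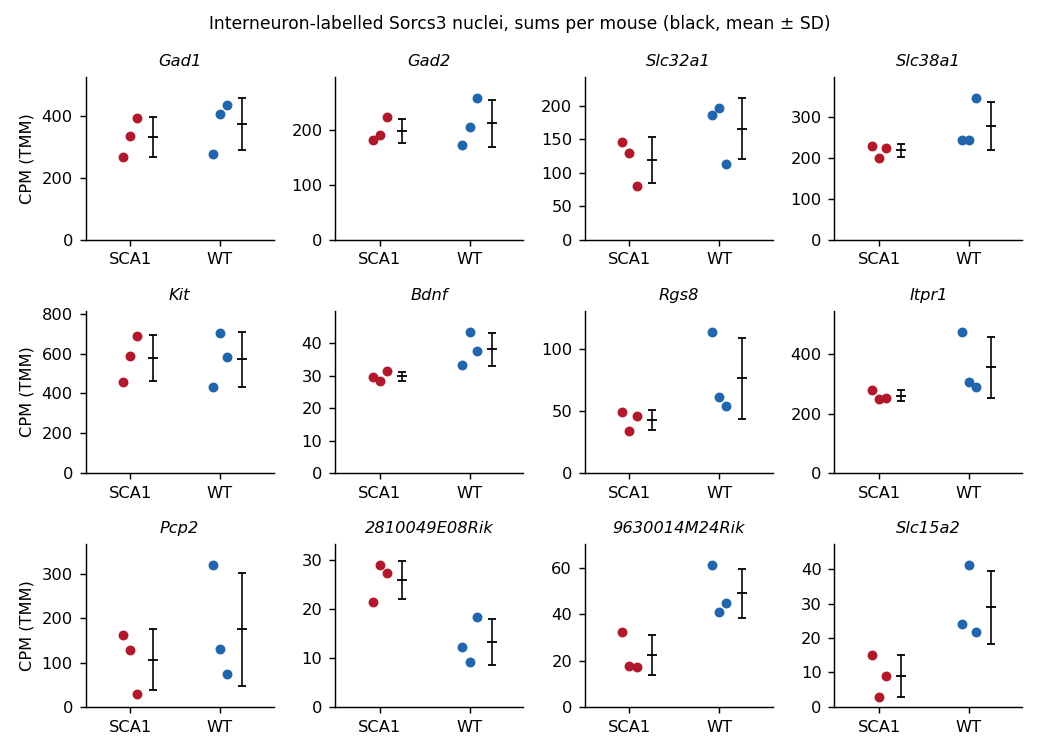
Levels of 12 genes (CPM, TMM-scaled, y axis from 0) in MLI1-like nuclei of each SCA1 (red) and WT (blue) mouse, with the mean ± SD in black. The genotypes overlap for Gad1, Gad2, Slc32a1, Kit and Pcp2 and lie apart for the other 7 genes, none of which passed the adjusted test.

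By role, GABA came first. None of the 7 genes that make, load, take up or break down GABA passed the test, and their median log2 fold change was -0.087 against -0.0055 over all genes tested. *Gad1* was at 266, 334 and 394 CPM in the SCA1 mice and 278, 405 and 436 CPM in the WT mice, and the genotypes overlapped. *Gad2* lay at 182, 191 and 224 CPM in the SCA1 mice and 174, 207 and 259 CPM in the WT mice and overlapped too. *Slc32a1*, the vesicular GABA transporter, was at 146, 129 and 80.0 CPM in the SCA1 mice and 187, 196 and 113 CPM in the WT mice, and the genotypes overlapped (log2 fold change -0.49, SE 0.26, unadjusted p = 0.0941 by edgeR). *Slc38a1*, a glutamine carrier that feeds GABA synthesis, had genotypes apart, at 230.2, 201 and 226 CPM in the SCA1 mice and 245, 245 and 347 CPM in the WT mice (log2 fold change -0.34, SE 0.20, unadjusted p = 0.126 by edgeR). That is 1 of the 7, beside 1.93% of all genes apart with the SCA1 mice lower and 1.68% higher. Within pairs of one replicate number, 3 of the 7 were lower in the SCA1 mouse in all 3 pairs, beside 12.8% of all genes, and these were *Gad1*, *Slc32a1* and *Slc38a1*. With the replicate block none passed the adjusted test, and the log2 fold change of *Slc32a1* was -0.47 (SE 0.11, unadjusted p = 0.00168 by edgeR) and that of *Gad1* -0.16 (SE 0.095, unadjusted p = 0.126 by edgeR). The levels of the 7 genes summed to 1652 to 1684 CPM in the SCA1 and 1769.6 to 1937 CPM in the WT mice. Sums of the genotypes did not overlap in 1 of 30 listed groups, these genes, and no test was made over the groups. With 3 mice against 3, an exact permutation test of a group apart could give no p below 0.1. Within pairs, the sum was lower in the SCA1 mouse in all 3 pairs in 2 of 30 groups, these genes and the Purkinje cell markers. It was higher in all 3 pairs in 4 groups. These were the GABA-A receptor subunits, the metabotropic glutamate receptors and the markers of unipolar brush cells and of precursors. The precursor markers were too low for a test and summed to 0 to 6.75 CPM in a mouse. The unipolar brush cell markers include *Eomes*, which the rule limits.

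Receptors and channels gave no call either. None of 10 GABA-A receptor subunits tested had genotypes apart, with log2 fold changes of -0.036 to 0.54. The same held for the 17 ionotropic glutamate receptor subunits (median 0.077), the 6 metabotropic receptors (median 0.15), the 23 potassium and HCN channel genes (median -0.075), the 9 sodium channel genes (median -0.0016), the 12 calcium channel subunits (median -0.0077) and the 24 synaptic adhesion genes (median 0.10). Genes higher and lower in the SCA1 mouse in all 3 pairs are to be read beside 11.9% and 12.8% of all genes. They numbered 1 and 1 for GABA-A subunits, 3 and 1 for ionotropic and 2 and 0 for metabotropic glutamate receptors. For potassium and HCN, sodium and calcium channels they were 3 and 3, 1 and 1, and 1 and 3. Of the adhesion genes 7 were higher and 2 lower. *Kctd12*, an auxiliary subunit of GABA-B receptors, was at 13.1, 3.66 and 3.17 CPM in the SCA1 mice and 30.2, 6.85 and 4.99 CPM in the WT mice, and the genotypes overlapped (log2 fold change -1.02, SE 0.32, unadjusted p = 0.0114 by edgeR). *Cacna1g*, a T-type calcium channel subunit, was at 13.1, 8.95 and 6.34 CPM in the SCA1 mice and 32.3, 12.6 and 25 CPM in the WT mice and overlapped too (log2 fold change -1.32, SE 0.30, unadjusted p = 0.00196 by edgeR). Both were named after their values were seen, for an unadjusted p under 0.05, which 1.02% of all genes had, and neither passed the adjusted test. Within pairs, both were lower in the SCA1 mouse in all 3. With the replicate block their unadjusted p was 0.00386 and 5.70e-04 by edgeR, and again neither passed the adjusted test. The study reports *Cacna1g* as lower in Purkinje cells of SCA1 mice. The part of RNA from Purkinje cells in its level here was not tested.

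Genes of the pinceau, gap junctions and axon initial segments also overlapped in all 12 tested (median 0.019), with *Gjd2* at 11.3, 13.8 and 13.5 CPM in the SCA1 mice and 8.07, 16.0 and 9.15 CPM in the WT mice. Among the 12 markers of molecular layer interneurons, 0 lay apart, and *Kit* was at 456, 586 and 686 CPM in the SCA1 mice and 430.0, 703 and 581 CPM in the WT mice. The 12 include *Sorcs3*, which chose the members, so its overlap is no result. *Bdnf*, a neurotrophin listed with the neuregulin, ErbB and *Kit* genes but not one of them, was at 29.6, 28.5 and 31.3 CPM in the SCA1 mice and 33.4, 43.4 and 37.4 CPM in the WT mice (log2 fold change -0.33, SE 0.19, unadjusted p = 0.114 by edgeR) and lay apart. No other of the 8 genes tested in that list did. Among 7 immediate early genes tested, *Junb* alone lay apart, at 6.55, 4.88 and 5.94 CPM in the SCA1 mice and 8.92, 10.3 and 12.5 CPM in the WT mice (log2 fold change -0.80, SE 0.34, unadjusted p = 0.0425 by edgeR), and the median over them was -0.67. The log2 fold change was below 0 for 5 of the 7 and above 0 for 2. In all 3 pairs of one replicate number, 3 were lower in the SCA1 mouse and 1, *Jund*, was higher, beside 12.8% and 11.9% of all genes. *Gucy1b1*, a subunit of the nitric oxide receptor, was the only listed gene with all SCA1 mice above the WT mice, at 51.4, 51.2 and 61.0 CPM in the SCA1 mice and 50.1, 47.9 and 46.6 CPM in the WT mice. Of 230 listed genes tested, 1 lay apart upward (0.435%) and 6 downward (2.61%), beside 1.68% and 1.93% of all genes. The 230 include *Sorcs3* and *Nxph1*, genes of the rule.

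Over all *Sorcs3* nuclei no listed gene passed the adjusted test, and the counts of genotypes apart differed for some lists, beside 1.61% of all genes apart upward and 2.01% downward. Of 8 immediate early genes tested there, 3 lay apart with the SCA1 mice lower, against 1 of 7 in MLI1-like nuclei. *Junb* was at 7.51, 5.59 and 4.19 CPM in the SCA1 mice and 9.0, 13.3 and 9.42 CPM in the WT mice (log2 fold change -0.78, SE 0.34, unadjusted p = 0.0509 by edgeR). *Egr1* was at 9.79, 6.43 and 4.69 CPM in the SCA1 mice and 10.6, 20.7 and 11 CPM in the WT mice (log2 fold change -0.90, SE 0.40, unadjusted p = 0.0569 by edgeR), and *Nr4a1*, a nuclear receptor gene, at 16.5, 9.78 and 15.0 CPM in the SCA1 mice and 16.5, 25.7 and 31.4 CPM in the WT mice (log2 fold change -0.73, SE 0.32, unadjusted p = 0.0503 by edgeR). WT mouse 1 lay close to SCA1 mouse 1 for all 3 genes, and for *Nr4a1* both round to the same level. Among modulatory receptors 2 of 10 lay apart with the SCA1 mice higher, and these were *Htr2c* and *Adra1a*, an adrenergic receptor, while *Gucy1b1* overlapped at 57.3, 51.7 and 68.6 CPM in the SCA1 mice and 49.2, 69.6 and 53.4 CPM in the WT mice. Of the Purkinje cell markers 1 of 9 lay apart, *Rgs8*, against 2 in MLI1-like nuclei, and *Itpr1* overlapped. The lists of calcium-binding proteins and of interneuron transcription factors had 1 gene each apart with the SCA1 mice lower, against 0 in MLI1-like nuclei.

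No marker of Purkinje cells passed the test in MLI1-like nuclei, but their log2 fold changes were below 0 for 9 of 9 genes, with a median of -0.58 against -0.0055 over all genes. Of the 9, 2 lay apart with the SCA1 mice lower, *Rgs8* and *Itpr1*, and 0 with them higher, beside 1.93% and 1.68% of all genes. *Rgs8*, a regulator of G protein signaling in Purkinje cells on chromosome 1, 153653025 to 153700323, was at 49.8, 34.2 and 45.9 CPM in the SCA1 mice and 114, 61.6 and 54.1 CPM in the WT mice (log2 fold change -0.78, SE 0.22, unadjusted p = 0.00589 by edgeR). *Itpr1*, the calcium release channel, was at 282, 249 and 254 CPM in the SCA1 mice and 475, 306 and 290.3 CPM in the WT mice. The list summed to 1211, 976 and 629 CPM in SCA1 mice 1, 2 and 3 and to 2386, 1192 and 843 CPM in WT mice 1, 2 and 3, so the genotypes overlapped while the SCA1 mouse was lower in each pair of one number. No marker of the 9 was at 0. In all 3 pairs 8 of the 9 were lower in the SCA1 mouse, beside 12.8% of all genes. With the replicate block 9 of the 9 had an unadjusted p under 0.05, beside 3.51% of all genes, and none passed the adjusted test (edgeR, adjusted p = 0.257 at the lowest). Other nuclei of the same mice, which therefore share the animals, are given beside them. The 9 log2 fold changes ranged from -1.18 to -0.42 in MLI1-like nuclei, from -1.04 to -0.28 in interneuron-labelled *Nxph1* nuclei, from -1.04 to -0.39 in granule neurons and from -1.16 to -0.31 in Purkinje-labelled nuclei. The log2 fold change of *Rgs8* was -1.04 in *Nxph1* nuclei, -0.74 in granule neurons and -1.07 in Purkinje-labelled nuclei (edgeR adjusted p = 0.999, 1.00 and 0.162), and that of *Itpr1* was -0.42 in MLI1-like nuclei, -0.57 in *Nxph1* nuclei, -0.71 in granule neurons and -0.60 in Purkinje-labelled nuclei. The *Rgs8* effect in MLI1-like nuclei differed from that in granule neurons by -0.023 on the log2 scale (SE 0.18, edgeR adjusted p = 1.00). A further list held 15 genes that the study names in Purkinje cells, with *Cacna1g*, *Rgs8* and *Itpr1* among them. In MLI1-like nuclei 13 had log2 fold changes below 0 and 2 above, and none passed the adjusted test. In all 3 pairs 8 were lower and 1 higher in the SCA1 mouse, beside 12.8% and 11.9% of all genes. Their sum was lower in 1 pair and higher in 2. The part of RNA from Purkinje cells in these values was not tested.

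Markers of other cells were present in MLI1-like nuclei and their sums overlapped between genotypes. Granule neuron markers summed to 280.0 to 695 CPM in the SCA1 and 244 to 863 CPM in the WT mice, oligodendrocyte markers to 114 to 687 and 112 to 869.6 CPM, and astrocyte and Bergmann glia markers to 80.4 to 364 and 105 to 454 CPM. In each of these the mice of batch 1 were the highest of their genotype. *Ttr*, made by the choroid plexus, went with single libraries, at 376, 0 and 0.396 CPM in the SCA1 mice and 1.70, 57.1 and 80.7 CPM in the WT mice. Without SCA1 mouse 1 it was called as lower in SCA1 (edgeR, adjusted p = 0.00705), and without WT mouse 1 as well, where the batch term takes up the remaining mouse of batch 1 in both (adjusted p = 0.00564). The other choroid plexus markers, *Folr1* and *Kl*, stood at most at 0.993 and 1.79 CPM in a mouse.

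Few MLI1-like nuclei had a UMI assigned to human *ATXN1*, the gene of the transgene. Human *ATXN1* had a UMI in 1 of 820 nuclei of SCA1 mice (0.122%) and 1 of 663 of WT mice (0.151%). In SCA1 mice 1 and 3, 0 of 366 and 0 of 207 nuclei had one, which at a limit of 3 counts allows up to 0.820% and 1.45% of nuclei with a UMI, and sets no limit on nuclei that express the gene. Granule neurons, which should lack the transgene, had a UMI in 0.550% of nuclei in SCA1 and 0.336% in WT mice, at medians of 5950 and 5795 UMIs against 11104 and 9560 in MLI1-like nuclei. Each share of MLI1-like nuclei rests on 1 nucleus, and their order with granule neurons was not the same in every mouse, with 0.518% of MLI1-like against 0.278% of granule nuclei in WT mouse 2. Where these UMIs came from was not tested. Purkinje-labelled nuclei had a UMI in 31 of 146 nuclei of SCA1 mice and in 0 of 146 of WT mice, which is the check of the genotype labels. Mouse *Atxn1* was at 399, 403 and 585 CPM in the SCA1 mice and 375, 428 and 606 CPM in the WT mice and overlapped. Of its partners, *Cic*, a transcriptional repressor bound by *ATXN1*, lay apart at 26.2, 32.9 and 27.3 CPM in the SCA1 mice and 35.3, 39.9 and 34.1 CPM in the WT mice (log2 fold change -0.34, SE 0.19, unadjusted p = 0.106 by edgeR), and did not pass the adjusted test.

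Whether a genotype effect was larger in these nuclei than in others was tested as an interaction, with mouse as a term, in edgeR. Against granule neurons, 0 of 17122 genes (0%) passed for *Sorcs3* nuclei and 0 of 16066 (0%) for MLI1-like nuclei, with 175 and 209 genes at an unadjusted p under 0.05. The lowest p in MLI1-like nuclei were those of *Mgat5b*, a glycosyltransferase of the brain, whose effect differed by -1.75 (SE 0.23, adjusted p = 0.467), the lysosomal mannosidase *Manba*, by -0.85 (SE 0.17, adjusted p = 1.00), and the gene model *Gm13269*, by 1.19 (SE 0.27, adjusted p = 1.00). Against *Nxph1* nuclei, 0 of 14334 (0%) passed for *Sorcs3* nuclei and 0 of 12494 (0%) for MLI1-like nuclei, with 369 and 421 at an unadjusted p under 0.05. The splicing factor gene *Rbfox1* was first in MLI1-like nuclei, with a difference of -0.83 (SE 0.15, adjusted p = 0.726), before the gene model *A330008L17Rik* and *Sh3pxd2a*, a scaffold of invadopodia. For all *Sorcs3* nuclei the lowest p were those of *Fras1*, *Manba* and *Mgat5b* against granule neurons and of *Rxfp1*, *Gm34455* and *Fras1* against *Nxph1* nuclei. DESeq2 called *Fras1*, an extracellular matrix gene, in the last comparison (adjusted p = 0.0209) and no gene against granule neurons.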

How the data were processed

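Single nuclei of whole cerebella were measured in 3 SCA1 and 3 WT mice. The authors deposited for each mouse a matrix of UMI counts, whole numbers with no normalization, and a table of SingleR labels. According to the methods, they had aligned reads with Cell Ranger to a mm10 genome extended by human *ATXN1*, counted introns, removed debris with DIEM under a higher minimum in the first run, clustered with Seurat 4.0.4 and labelled nuclei with SingleR from DropViz. Debris removal sets which shallow nuclei remain.

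Counts of a mouse were summed, as its nuclei are no replicates. The sums were tested in edgeR 4.0.16 under R 4.3.3 (quasi-likelihood, TMM factors), filterByExpr (minimum count 10, total 15), and batch and genotype as terms. CPM in genotype comparisons is scaled by TMM over the 6 sums, CPM of marker levels is not. Alternatives used DESeq2 1.42.0, limma 3.58.1 (prior count 2), RLE factors, no filter, stricter rules, at least 3000 UMIs, thinning to 3000 UMIs, each mouse left out, and no batch term. Shares were tested with scipy 1.17.1 in Python 3.11.15, tables made with pandas 2.3.3 and numpy 2.4.6, and plots drawn in matplotlib 3.10.9. The scripts were tested on simulated data.

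Groups and replicate numbers came from the sample labels. Same-numbered mice of both genotypes deviated together from their group means in MLI1-like nuclei, with correlations over genes of 0.763, 0.324 and 0.570. The numbers were therefore taken as pairs in a further fit with the replicate as a block. Mice of number 1 are batch 1, and deviations from a mean of 3 mice are tied to each other. SCA1 mouse 3 also correlated with WT mouse 2, at 0.182. The pairing was thus inferred from the counts it was fitted to, and its unadjusted p values are descriptions. Coordinates are from GENCODE vM21 (GRCm38), matched by symbol. The members, the gene lists and the rule for naming genes were chosen with earlier results of these data known, and the values of listed genes within pairs were added after the data were seen. Genes named for SCA1 against WT are the 10 lowest p each way among genes of at least 20 CPM whose genotypes do not overlap. Those beside *Nxph1* nuclei are the 10 largest folds each way among genes of at least 50 CPM on the same side in 6 mice, and 3 are named per interaction, except that a few genes are not reported here. Besides these, genes of fixed lists are named, and the examples under Pvalb-Nefh, Pvalb-Rab3b and the other labels were chosen after their values were seen. Each library is 1 mouse, so p values measure the spread between these mice.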

Additional observations from a re-analysis of the deposited data

How the results depend on the processing

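The count of 0 genes between SCA1 and WT in *Sorcs3* nuclei stayed at 0 with DESeq2, limma, RLE factors, library size only, no batch term, at least 3000 UMIs and the stricter rules, and in MLI1-like nuclei with DESeq2, no filter and no batch term. With no filter on low counts it was 2 in *Sorcs3* nuclei, *Gm12160* and *Gm19303*, and leaving out each mouse gave 0 to 1, the gene being *Ttr* without SCA1 mouse 1 or WT mouse 1. With the replicate number as a block the count was 0 in both sets, and the number at an unadjusted p under 0.05 moved from 108 to 471 and from 124 to 427. The block was not fitted for the shares, nor for the differences from granule neurons and *Nxph1* nuclei. Against granule neurons every alternative gave 0, with 1235 genes at an unadjusted p under 0.05 without WT mouse 1. Against *Nxph1* nuclei the count was 1 with DESeq2, 41 with no filter (11 higher, 30 lower) and 0 to 2 with each mouse left out, *Epha6* being among the 2 without WT mouse 1. The cause was not tested. Differences in shares ran from -1.43 to 0.205 points of all nuclei and from -1.69 to 2.18 points of both types over the alternatives, and from -0.609 to 0.949 and from -3.95 to 1.79 with each mouse left out. In MLI1-like nuclei thinned to 3000 UMIs they were -1.12 and 3.92 points. The genes at least 2-fold apart from *Nxph1* nuclei numbered 131 for all *Sorcs3* nuclei, 25 at 4-fold and 328 for interneuron-labelled nuclei. Of 579 values of named genes under alternatives, 576 kept their direction, while *Slit2* turned to -0.66 in MLI1-like nuclei and *Rorb* to 1.01 there and to 0.052 without high-UMI nuclei. The named genes were picked for their side in these same mice, so the kept directions were largely set in advance and are no separate support. *Mir670hg*, named in MLI1-like nuclei, was at -0.18 over all *Sorcs3* nuclei. The interneuron label and the alternatives made on it were chosen after seeing the data. WT mouse 2 limits the depth behind all values.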
